A study of Mus musculus with 6 samples.

Results

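The genes described here encode the proteasome, its activators, and the factors that assemble it. They were taken by name as every Psma, Psmb, Psmc, Psmd, Psme, Psmf, or Psmg gene, followed by a number, in the deposited comparison table, without the 3 immunoproteasome subunits *Psmb8*, *Psmb9*, and *Psmb10*. The rule gave 46 of the 56923 genes listed, of which 15 were core genes (Psma and Psmb), 26 were regulatory genes (Psmc, Psmd, and Psme), and 5 were Psmf or Psmg genes. RNA was measured in bulk tissue from 3 WT and 3 *Lztr1* R409C/+ mice, all 12 weeks old, each sequenced as a library of its own. The labels call the tissue heart, and the methods of the study name PBS-perfused left ventricles (LVs). *Lztr1* R409C/+ mice carry 1 germline knock-in allele of *Lztr1* in every tissue, made with CRISPR/Cas9, and were backcrossed to C57BL/6J mice. WT mice carry no mutant allele. The study used male mice for its phenotypes.

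The proteasome is the large protease that degrades proteins tagged with ubiquitin. Its barrel-shaped 20S core is built of rings of α and β subunits, and 3 of the β subunits carry the active sites. The 19S regulatory particle caps the core, and its lid removes ubiquitin while the ATPases of its base unfold the substrate and thread it into the core. LZTR1 is a substrate adaptor of a CUL3 ubiquitin ligase for RAS proteins, so the proteasome acts downstream of it. In cardiac muscle, proteasomes turn over sarcomeric and signaling proteins.

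Total counts ranged from 66130887 to 72641124 per mouse, and 17212 genes were tested. All 46 proteasome genes passed the filter on low counts, with between 123 and 36599 counts per mouse. Mitochondrially encoded genes took between 13.8% and 37.3% of the counts in WT mice and between 29.7% and 45.4% in *Lztr1* R409C/+ mice. WT replicate 3 held the lowest share and *Lztr1* R409C/+ replicate 1 the highest. Markers of cardiomyocytes were abundant in each mouse, with a summed level of 25950 to 31410 CPM (the counts of a gene scaled to a common library size) in WT and 19690 to 30580 CPM in *Lztr1* R409C/+ mice. Of the atrial markers, *Sln* and *Myl7* were at 0 in each WT mouse, and the 3 atrial markers summed to at most 0.814 CPM in any mouse. *Lztr1* itself was at 24.2, 24.2, and 22.2 CPM in WT and 23.9, 27.9, and 25.4 CPM in *Lztr1* R409C/+ replicates 1 to 3, which overlap. A knock-in of a point mutation is not read out by the count of its gene.

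No proteasome gene passed the test of genotype. By edgeR's quasi-likelihood test and Benjamini-Hochberg adjustment over all genes, the smallest adjusted p of the 46 was 0.319, against 7 genes called of 17212 (0.0407%). DESeq2's Wald test called 0 of the 46 as well, against 158 genes of 17212 (0.918%). At an unadjusted p under 0.05, 1 proteasome gene (*Psmg4*) was higher, against 5.77% of all genes tested, and 1 (*Psmd1*) was lower, against 2.86%. The CPM of the genotypes did not overlap for 3 of 46 higher genes (6.52%), against 8.3% of all genes, and for 7 of 46 lower genes (15.2%), against 7.23%. All 7 of the lower genes without overlap are regulatory genes.

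The regulatory and core genes are given apart. Of the 26 regulatory genes, 20 were lower and 6 were higher in *Lztr1* R409C/+ mice, with a median log2 fold change of -0.10 (-0.195 without WT replicate 2). Of the 15 core genes, 7 were lower and 8 were higher, with a median of 0.01, and 12 of the 15 were higher without WT replicate 3. Over all genes tested, 51.4% were higher and the median was 0.01. With scaling by library size alone, 23 of the regulatory and 10 of the core genes were lower, with medians of -0.30 and -0.12. The median of all genes was then -0.14, with 34.5% higher. The groups were counted without a test, since their members were chosen with earlier results of these data known.

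**Figure D1:**
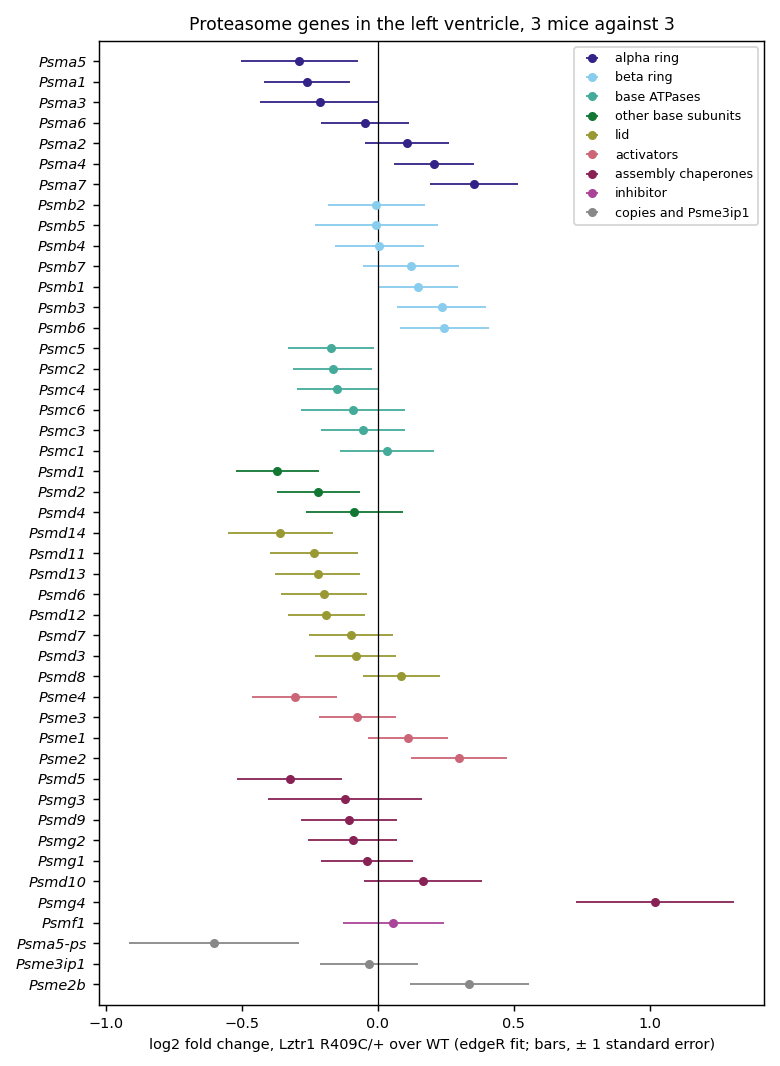
Log2 fold change of each of the 46 proteasome genes in *Lztr1* R409C/+ over WT LVs (x axis), with bars for 1 standard error of the edgeR fit and colors for the role of each gene. Of the 46 genes, 17 are subunits of the 19S particle (base ATPases, other base subunits, and lid), and 15 of the 17 lie below 0. Of the 14 subunits of the 20S core, 8 lie above 0.

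The subunits of the 2 particles were then taken from the genes chosen by name, without pseudogenes, chaperones, and activators. This division was made after values were seen, and it leaves out subunits under other names, such as *Adrm1* and *Sem1*. Of the 17 subunits of the 19S particle, 15 were lower in *Lztr1* R409C/+ mice, with a median log2 fold change of -0.17 and a range of -0.37 to 0.09. For 6 of these 17 (35.3%) the CPM was lower without overlap between the genotypes, against 7.23% of all genes tested. Of the 14 subunits of the 20S core, 8 were higher and 6 were lower, with a median of 0.06 and a range of -0.29 to 0.35, and the CPM was higher without overlap for 1 of them (7.14%), against 8.3% of all genes, and lower without overlap for 0. Without WT replicate 3, 13 of the 17 subunits of the 19S particle were lower, with a median of -0.11, and 12 of the 14 subunits of the 20S core were higher, with a median of 0.13. Scaling by library size alone, which moves the median of all genes to -0.14, left 17 of the 19S subunits lower, 5 of the 20S subunits higher, and 1 of the 19S subunits lower without overlap, against 4.76% of all genes on that scale.

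Summed over the 17 subunits, the 19S level was 1165, 1124, and 1261 CPM in WT replicates 1 to 3. In *Lztr1* R409C/+ replicates 1 to 3 it was 1022, 1069.8, and 1086 CPM. The WT mice were all above the *Lztr1* R409C/+ mice, with means of 1183 ± 70.2 and 1059.5 ± 33.2 CPM (SD, n = 3 each). This separation depends on how the libraries are scaled. Scaled by library size alone, the sums were 1073, 1016, and 1751 CPM in WT and 818, 1053, and 1191 CPM in *Lztr1* R409C/+ replicates 1 to 3, which overlap.

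Summed over its 14 subunits, the 20S core was at 698, 716, and 802 CPM in WT and 791, 732, and 749.6 CPM in *Lztr1* R409C/+ replicates 1 to 3. These values overlap, with means of 738 ± 55.8 and 758 ± 30.3 CPM (SD, n = 3 each), and WT replicate 3 was the highest of the 6 mice.

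The ratio of the 19S sum to the 20S sum does not depend on how the libraries are scaled. It was 1.67, 1.57, and 1.57 in the WT mice and 1.29, 1.46, and 1.45 in *Lztr1* R409C/+ replicates 1 to 3. The ratio was lower in each *Lztr1* R409C/+ mouse than in any WT mouse. Its means were 1.604 ± 0.0572 and 1.401 ± 0.0943 (SD, n = 3 each). The ratio was computed after the values of the subunits were seen and is given without a test. A sum weights the abundant transcripts, and the transcripts of the 19S subunits are longer than those of the 20S subunits, with medians of 1989 and 1386.5 bases.

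Taken by subunit, the 19S genes of *Lztr1* R409C/+ replicate 1 had a median log2 ratio of -0.24 to the WT mean, with 15 of 17 below it. The medians were -0.18 in replicate 2, with 16 of 17 below the WT mean, and -0.10 in replicate 3, with 11 of 17 below it. Among the WT mice the medians were -0.02, -0.08, and 0.09, so that WT replicate 2 lay close to *Lztr1* R409C/+ replicate 3. For the 20S genes, the medians were 0.09, 0.02, and 0.03 in *Lztr1* R409C/+ and -0.09, -0.04, and 0.06 in WT replicates 1 to 3, which overlap.

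**Figure D2:**
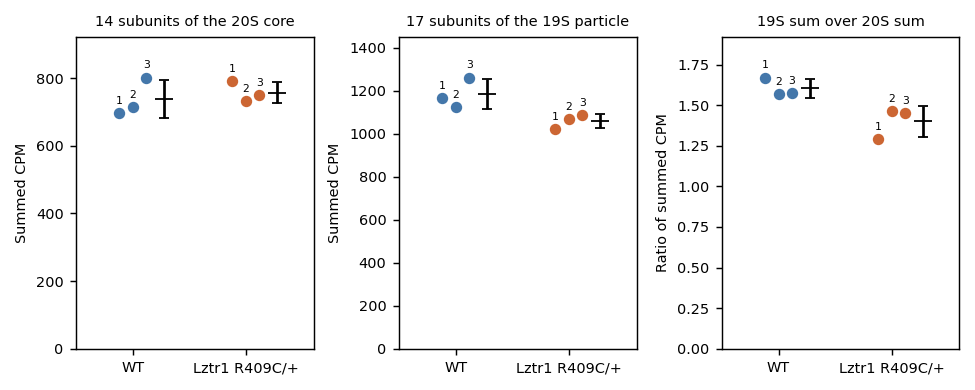
CPM summed over the 14 subunits of the 20S core (left) and the 17 subunits of the 19S particle (middle), and the ratio of the 19S sum to the 20S sum (right), in each mouse, with replicate numbers and with the mean and SD of each genotype as a black bar. The 20S sums overlap between genotypes, whereas the 19S sums and the ratio do not on this scale, with *Lztr1* R409C/+ replicate 1 lowest in both. By library size alone the 19S sums overlap.

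**Figure D3:**
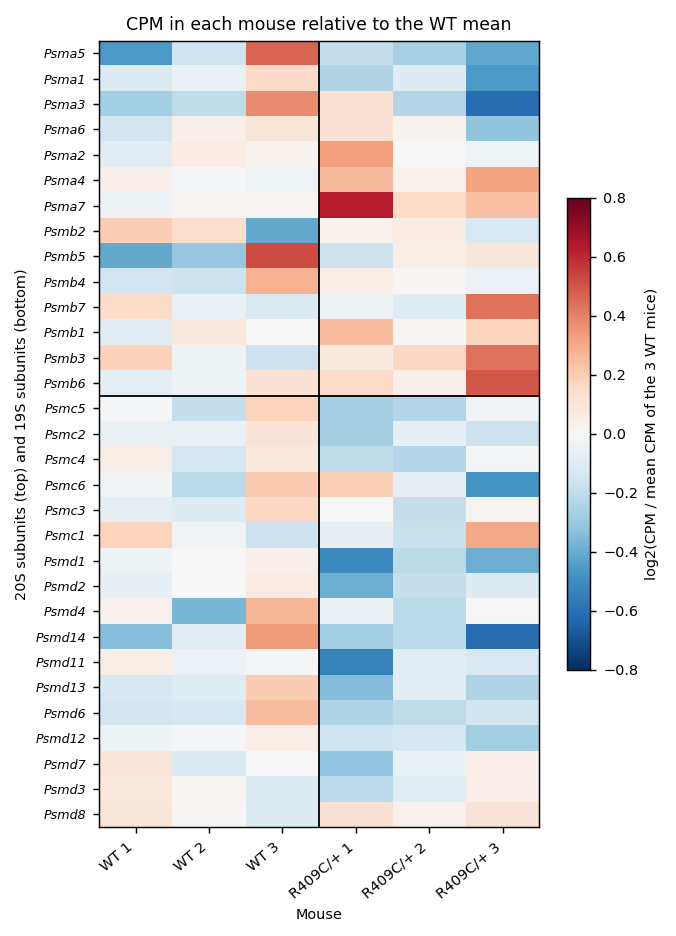
Log2 ratio of the CPM in each mouse to the mean CPM of the 3 WT mice, for each subunit of the 20S core (upper rows) and of the 19S particle (lower rows), with mice in columns. The lower rows are mostly blue, below the WT mean, in *Lztr1* R409C/+ replicates 1 and 2, with 15 and 16 of 17 subunits below it, and mixed in replicate 3, with 11 of 17.

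Among the genes taken by name, 3 of 3 non-ATPase subunits of the base were lower (2 without WT replicate 3). Their median log2 fold change was -0.22. *Adrm1*, a base subunit that the name rule left out, overlapped between the genotypes. Its log2 fold change was 0.06, or -0.14 without *Lztr1* R409C/+ replicate 3. *Psmd1* (ENSMUSG00000026229.18, GRCm39 chromosome 1, 85992097 to 86070048) encodes the largest scaffold of the base, which holds ubiquitin receptors. Its level was 117, 120.1, and 124 CPM in WT and 84.2, 104, and 91.9 CPM in *Lztr1* R409C/+ replicates 1 to 3. The 3 WT mice lay within a narrow range, above each *Lztr1* R409C/+ mouse. The log2 fold change was -0.37 ± 0.15 (SE; edgeR's quasi-likelihood test, Benjamini-Hochberg adjusted p = 0.533). Its unadjusted p stayed under 0.05 in 1 of the 6 omissions of a single mouse, that of *Lztr1* R409C/+ replicate 2, and passed 0.05 in the other 5 and under some of the other alternatives, among them scaling by library size alone. Over the alternatives the log2 fold change of *Psmd1* ranged from -0.53 to -0.28.

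*Psmd2* (chromosome 16, 20470346 to 20485708), the other scaffold of the base, was at 167, 174, and 183 CPM in WT and 133, 154, and 162.5 CPM in *Lztr1* R409C/+ replicates 1 to 3. The genotypes did not overlap, and the log2 fold change was -0.22 ± 0.15 (SE; edgeR adjusted p = 0.733). It was -0.11 without both WT replicate 3 and *Lztr1* R409C/+ replicate 1, and -0.37 with scaling by library size alone. *Psmd4*, a receptor for ubiquitin chains, had a log2 fold change of -0.09, or 0.07 without WT replicate 3, and its values overlapped. Of the 6 ATPases, 5 were lower, with a median log2 fold change of -0.12 and a range of -0.17 to 0.03. The median was -0.06 without WT replicate 3 and -0.195 without WT replicate 2.

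*Psmc2* (chromosome 5, 21989254 to 22008796) was the ATPase without overlap. It was at 59.9, 59.7, and 66.5 CPM in WT and 51.5, 59.3, and 55.15 CPM in *Lztr1* R409C/+ replicates 1 to 3, with a log2 fold change of -0.17 ± 0.15 (SE; edgeR adjusted p = 0.796). The gap between the lowest WT mouse and the highest *Lztr1* R409C/+ mouse was small beside the spread within either genotype. *Psmc3*, the ATPase with the highest level per length of the regulatory genes, overlapped, at 100.5, 99.04, and 119 CPM in WT and 106, 93.5, and 108 CPM in *Lztr1* R409C/+ mice. The log2 fold change of -0.05 changed sign when WT replicate 3 or *Lztr1* R409C/+ replicate 2 was left out.

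The lid holds the deubiquitinase *Psmd14* and its structural partners. Of its 8 genes among the 46, 7 were lower, with a median log2 fold change of -0.19 (-0.12 without WT replicate 3). *Sem1*, a lid subunit that the name rule left out, had a log2 fold change of -0.002. It was at 24.7, 19.5, and 41.4 CPM in WT and 29.2, 21.3, and 35.1 CPM in *Lztr1* R409C/+ replicates 1 to 3, which overlap. *Psmd12* (chromosome 11, 107370246 to 107395206), a structural subunit of the lid, was at 67.5, 68.7, and 72.05 CPM in WT and 62.2, 63.0, and 57.4 CPM in *Lztr1* R409C/+ replicates 1 to 3. The genotypes were apart, with a log2 fold change of -0.19 ± 0.14 (SE; edgeR adjusted p = 0.754). *Psmd11* (chromosome 11, 80319400 to 80364074), another structural subunit, was at 61.0, 56.95, and 58.4 CPM in WT and 40.55, 55.3, and 53.9 CPM in *Lztr1* R409C/+ mice. *Lztr1* R409C/+ replicate 1 lay well below the other 5 mice, and the log2 fold change was -0.23 ± 0.16 (SE; edgeR adjusted p = 0.728), and -0.11 without that mouse.

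*Psmd6* (chromosome 14, 8348762 to 8357589), a further structural subunit, was at 47.0, 47.8, and 62.2 CPM in WT and 44.3, 45.5, and 46.9 CPM in *Lztr1* R409C/+ replicates 1 to 3. WT replicates 1 and 2 were just above the highest *Lztr1* R409C/+ mouse, and the log2 fold change of -0.20 ± 0.16 (SE; edgeR adjusted p = 0.773) was -0.06 without WT replicate 3. *Psmd14* was at 32.3, 38.5, and 51.6 CPM in WT and 33.7, 35.1, and 26.7 CPM in *Lztr1* R409C/+ mice. Its values overlapped, with a log2 fold change of -0.36 ± 0.19 (SE; edgeR adjusted p = 0.64), and -0.16 without WT replicate 3. *Psmd8*, at a log2 fold change of 0.09, was the lid gene that was higher, but was at -0.06 with scaling by library size alone.

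**Figure D4:**
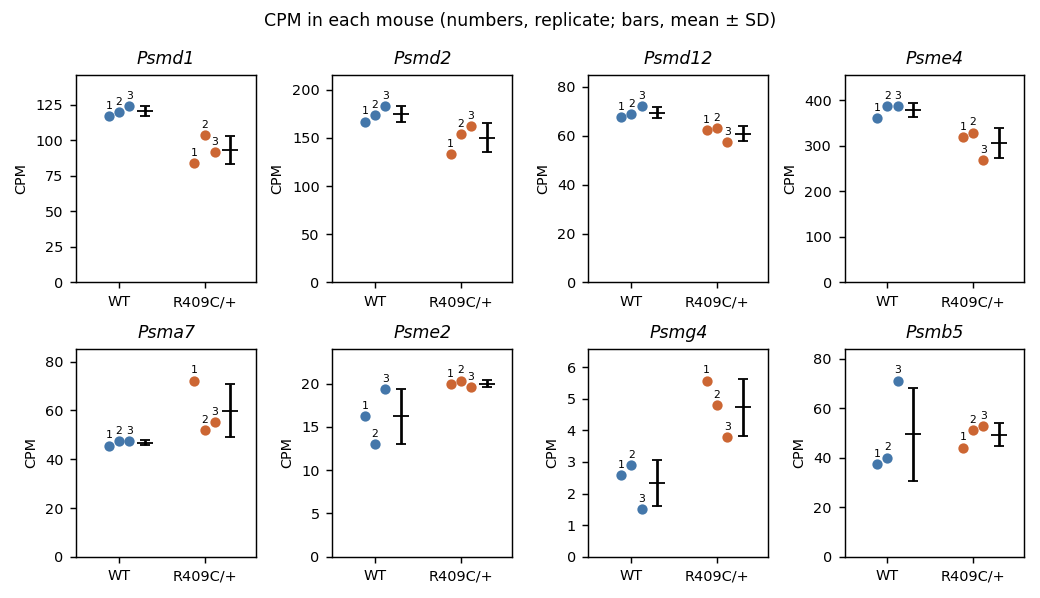
CPM of 8 proteasome genes in each mouse (y axes from 0), with replicate numbers and with the mean and SD of each genotype as a black bar. *Psmd1*, *Psmd2*, *Psmd12*, and *Psme4* are lower and *Psma7*, *Psme2*, and *Psmg4* are higher in each *Lztr1* R409C/+ mouse than in any WT mouse, whereas *Psmb5* overlaps, with WT replicate 3 highest at 71.3 CPM.

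In the 20S core, the 7 α genes had log2 fold changes from -0.29 to 0.35, with 3 higher (6 without WT replicate 3), and the 7 β genes from -0.01 to 0.24, with 5 higher (3 with scaling by library size alone). *Psma7* (ENSMUSG00000027566.16, chromosome 2, 179678155 to 179684421), an α-ring subunit, was the core gene without overlap. It was at 45.6, 47.4, and 47.55 CPM in WT and 72.3, 51.9, and 55.35 CPM in *Lztr1* R409C/+ replicates 1 to 3. *Lztr1* R409C/+ replicate 1 was far above the others, and the log2 fold change was 0.35 ± 0.16 (SE; edgeR adjusted p = 0.578), and 0.19 without that mouse. Its exons overlap 132 bases of *Ss18l1* on the opposite strand, which was at 2.58 to 4.48 CPM.

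None of the 3 catalytic subunits passed the test, and the values of each overlapped. *Psmb5*, of the chymotrypsin-like site, was at 37.3, 40.1, and 71.3 CPM in WT and 44.1, 51.25, and 52.8 CPM in *Lztr1* R409C/+ replicates 1 to 3. The WT mice enclosed the *Lztr1* R409C/+ mice, and the log2 fold change of -0.01 ± 0.23 (SE; edgeR adjusted p = 0.996) was 0.35 without WT replicate 3. *Psmb6*, of the caspase-like site, was at 35.0, 36.0, and 40.1 CPM in WT and 41.2, 38.1, and 52.3 CPM in *Lztr1* R409C/+ mice, with a log2 fold change of 0.24 ± 0.16 (SE; edgeR adjusted p = 0.717). *Lztr1* R409C/+ replicate 3 was the highest, and without it the log2 fold change was 0.099, while replicate 2 lay within the WT range.

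*Psmb7*, of the trypsin-like site, was at 73.4, 63.9, and 61.2 CPM in WT and 64.5, 61.96, and 89.6 CPM in *Lztr1* R409C/+ replicates 1 to 3. Its log2 fold change of 0.12 ± 0.18 (SE; edgeR adjusted p = 0.888) rested on *Lztr1* R409C/+ replicate 3, without which it was -0.07. Its exons share 2817 bases with *Nek6* on the opposite strand. *Nek6* was at 3.19 to 4.26 CPM in WT and 5.61 to 6.88 CPM in *Lztr1* R409C/+ mice, with a log2 fold change of 0.72. The part of *Nek6* reads in the counts of *Psmb7* was not tested.

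Activators open the core without the 19S particle, and 2 of their 4 genes were higher (1 with scaling by library size alone). *Psme4* (ENSMUSG00000040850.18, chromosome 11, 30721725 to 30830376) encodes PA200, and had the highest CPM of the 46 genes. It was at 360.3, 386, and 386 CPM in WT and 319.5, 329, and 268 CPM in *Lztr1* R409C/+ replicates 1 to 3. Each *Lztr1* R409C/+ mouse was below each WT mouse, with a log2 fold change of -0.31 ± 0.16 (SE; edgeR adjusted p = 0.618).

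*Psme1* and *Psme2* encode the paired subunits of PA28αβ, which is inducible by interferon-γ. *Psme2* (chromosome 14, 55824895 to 55829173) was at 16.27, 13.02, and 19.35 CPM in WT and 19.98, 20.35, and 19.55 CPM in *Lztr1* R409C/+ replicates 1 to 3. The *Lztr1* R409C/+ mice lay close together and WT replicate 3 was just below them, with a log2 fold change of 0.30 ± 0.18 (SE; edgeR adjusted p = 0.674). The fold change was 0.16 without WT replicate 2 and 0.445 without WT replicate 3. The exons of *Psme2* share 731 bases with *Rnf31* on the opposite strand, which was at 15.3 to 23.2 CPM, with a log2 fold change of -0.25. *Psme2b*, an intronless copy, is 99.4% identical to *Psme2* over 795 bases, so counts of either are uncertain where reads match both.

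*Psme1* was at 63.1, 58.4, and 67.1 CPM in WT and 62.2, 69.7, and 71.8 CPM in *Lztr1* R409C/+ mice, which overlap, and its exons share 2192 bases with *Emc9* on the opposite strand. Its log2 fold change was 0.11, 0.06 without WT replicate 2, and -0.05 with scaling by library size alone. *Psme3*, of the nuclear PA28γ, was at 47.3, 53.55, and 50.5 CPM in WT and 50.4, 45.9, and 47.3 CPM in *Lztr1* R409C/+ mice. These values overlap, with a log2 fold change of -0.08, and -0.03 without WT replicate 2.

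Of the 7 chaperones that assemble the core or the base, 5 were lower and 2 were higher (4 without WT replicate 3). *Psmg4* (ENSMUSG00000071451.11, chromosome 13, 34346937 to 34362166) encodes a partner of *Psmg3* in building the α ring, and had the smallest p of the 46 genes. It was at 2.59, 2.905, and 1.52 CPM in WT and 5.58, 4.81, and 3.79 CPM in *Lztr1* R409C/+ replicates 1 to 3. Each *Lztr1* R409C/+ mouse was above each WT mouse, with a log2 fold change of 1.02 ± 0.29 (SE; edgeR adjusted p = 0.319). The gene had between 144 and 344 counts per mouse, and its log2 fold change ranged from 0.65 to 1.21 over the alternatives, with adjusted p from 0.0716 to 0.976.

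Its partner *Psmg3* overlapped, at 2.94, 2.41, and 4.16 CPM in WT and 2.65, 2.53, and 3.57 CPM in *Lztr1* R409C/+ mice, with a log2 fold change of -0.12, or 0.13 without WT replicate 3. *Psmd5*, a chaperone of the base, had the lowest log2 fold change of the chaperones, at -0.32 (-0.19 without WT replicate 3), and its values overlapped. The inhibitor *Psmf1* overlapped as well, with a log2 fold change of 0.06, or -0.07 without WT replicate 3.

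WT replicate 3 held the highest value of 22 of the 46 genes, 15 of them regulatory, and *Lztr1* R409C/+ replicate 1 the lowest value of 11 regulatory genes and of 0 core genes. Without both of these mice, the mice with the extreme mitochondrial shares, 13 of the 17 subunits of the 19S particle were lower, with a median log2 fold change of -0.06. The median log2 fold change of the 26 regulatory genes was then -0.06. The part of the mitochondrial share in these values was not tested further.

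Markers of macrophages, which clear debris and present antigen, stood higher in *Lztr1* R409C/+ mice. All 7 were higher, 6 of them without overlap (8.3% of all genes tested) and 6 at an unadjusted p under 0.05 (5.77% of all genes), and their summed level was 169 to 207 CPM in WT and 277 to 377 CPM in *Lztr1* R409C/+ mice. Scaled by library size alone, all 7 were still higher, but the sums overlapped, at 154.6 to 287.7 CPM and 272.8 to 317.6 CPM. None of the 7 passed edgeR's test with adjustment over all genes. The 4 markers of other leukocytes were also higher, with sums of 6.01 to 11.1 and 11.85 to 16.9 CPM (5.5 to 15.4 and 13 to 14.5 CPM by library size alone, which overlap), and *Cd3e*, of T cells, was at 0 in 2 WT mice. Erythroid markers were higher in 3 of 3 cases, 2 of them at an unadjusted p under 0.05 (against 5.77% of all genes), with sums of 346 to 869 CPM in WT and 613 to 1578 CPM in *Lztr1* R409C/+ mice, which overlap. Of 5 fibroblast markers, 4 were higher, and *Lum* and *Tcf21* were higher without overlap, against 8.3% of all genes tested. Of 5 markers of smooth muscle and pericytes, 3 were lower, *Myh11* without overlap, against 7.23% of all genes. Markers of cardiomyocytes were lower in 4 of 6 cases, 1 of them (*Ryr2*) without overlap against the same 7.23%, with sums that overlap. Of 5 endothelial markers, 3 were higher, with sums of 501.9 to 662.5 CPM in WT and 421.4 to 709.7 CPM in *Lztr1* R409C/+ mice, which overlap. Of 3 skeletal muscle markers, 3 were higher, 0 of them at an unadjusted p under 0.05, with overlapping sums of 1051 to 1487 and 1319 to 1625 CPM. Nearly all of that sum was *Ckm*, which the heart also expresses, while *Mylpf* and *Tnnt3* stayed under 1 CPM in every mouse and *Tnnt3* was at 0 in 2 WT mice. None of these markers passed edgeR's test with adjustment over all genes. The part of cell composition in the values of the proteasome genes was not tested, and in bulk RNA fewer cells of a type cannot be told apart from less RNA per cell.

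Levels of different genes were compared per length, as the mean of CPM per kilobase of transcript over the 6 mice. Genes of the core ranged from 10.1 for *Psmb2* to 71.6 for *Psma6* among the 14 subunits, with a median of 34.1. The 17 subunits of the 19S particle ranged from 14.9 for *Psmd14* to 63.8 for *Psmc3*, with a median of 31.8. The medians of the particles were therefore close, although the subunits of a particle, which are built in at equal numbers, spread over several-fold in transcript level. These levels depend on the transcript chosen for each gene, and a gene with a long annotated untranslated end, such as *Psmb1* at 6002 bases, is placed low by it.

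*Psma6*, an α-ring subunit, was at 68.4, 77.9, and 81.2 CPM in WT and 82.1, 77.3, and 61.0 CPM in *Lztr1* R409C/+ mice, which overlap. Among activators, *Psme4* had 52.6 CPM per kilobase, against 18.7 for *Psme2*, 15.5 for *Psme1*, and 11.2 for *Psme3*. The chaperones were low, with a median of 4.07 and a range of 3.42 to 11.9.

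The lowest gene was *Psma5-ps*, a processed pseudogene on chromosome 10 that is 99.1% identical to *Psma5* over 948 bases. It was at 3.39, 2.19, and 5.08 CPM in WT and 2.22, 2.57, and 2.25 CPM in *Lztr1* R409C/+ mice. How reads that match both genes were counted is not given in the sources used here, so counts of either are uncertain. The lowest regulatory gene was *Psme3ip1*, which encodes a protein that binds PA28γ and is no subunit. It was at 12.8, 12.0, and 10.7 CPM in WT and 9.62, 12.2, and 12.9 CPM in *Lztr1* R409C/+ mice, which overlap.

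**Figure D5:**
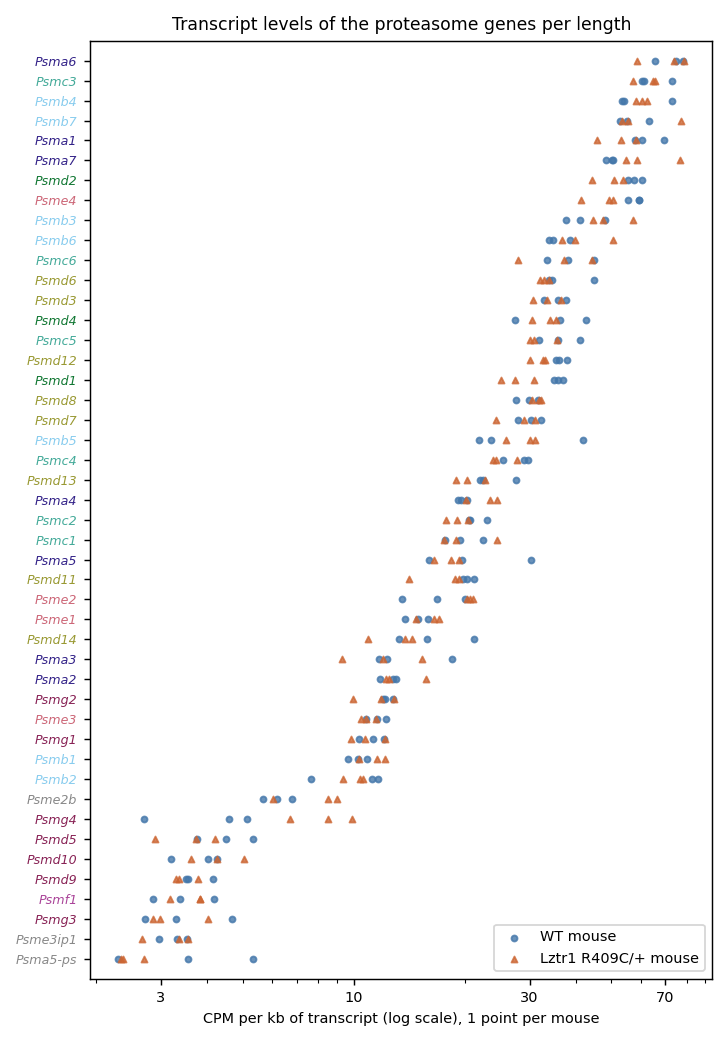
CPM per kilobase of transcript of each proteasome gene (log scale), with 1 point per mouse and gene names colored by role as in the plot of log2 fold changes. Subunits of the core and of the 19S particle are intermixed, with means over the 6 mice between 10.1 and 71.6, chaperones lie between 3.42 and 11.9, with *Psmg1* and *Psmg2* above *Psmb1* and *Psmb2*, and *Psme4* is the highest activator at 52.6.

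The other genes of the pathway were read from lists, and none of their genes passed edgeR's test. Genes at an unadjusted p under 0.05 are given with their values. Of 11 factors that belong to or bind the proteasome under other names, 10 were lower (8 with upper quartile scaling) and 3 of these did not overlap, against 7.23% of all genes tested. *Ecpas*, a scaffold that binds the proteasome, was at 219, 215, and 228 CPM in WT and 175, 186, and 163 CPM in *Lztr1* R409C/+ replicates 1 to 3. The genotypes were well apart, with the log2 fold change at -0.34 ± 0.15 (SE; edgeR adjusted p = 0.564).

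Shuttles that bring ubiquitinated proteins to the proteasome and the p97 segregase were lower for 8 of 8 genes (6 with upper quartile scaling, and 6 without *Lztr1* R409C/+ replicate 1 or WT replicate 1), 3 without overlap, against 7.23% of all genes tested. *Vcp*, which encodes p97, was at 365, 321, and 444 CPM in WT and 185, 304, and 307 CPM in *Lztr1* R409C/+ replicates 1 to 3. *Lztr1* R409C/+ replicate 1 was far below the others, and the log2 fold change was -0.51 ± 0.21 (SE; edgeR adjusted p = 0.552), and -0.31 without that mouse. *Uba6*, an E1 enzyme that activates ubiquitin, was at 15.9, 16.2, and 16.1 CPM in WT and 12.5, 13.9, and 10.3 CPM in *Lztr1* R409C/+ mice, with a log2 fold change of -0.39 (edgeR adjusted p = 0.555).

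The immunoproteasome subunits replace the catalytic subunits of the core in immune cells and under interferon-γ, and 3 of 3 were higher (2 with scaling by library size alone). *Psmb8* was at 5.735, 5.41, and 10.16 CPM in WT and 10.16, 9.83, and 11.3 CPM in *Lztr1* R409C/+ replicates 1 to 3. WT replicate 3 lay among the *Lztr1* R409C/+ mice, and the log2 fold change was 0.55 ± 0.24 (SE; edgeR adjusted p = 0.564), and 0.90 without that mouse. *Psmb9* and *Psmb10* had log2 fold changes of 0.45 and 0.15, and both overlapped. That of *Psmb10* was -0.04 with scaling by library size alone.

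Of 10 genes that respond to interferon-γ, 9 were higher (6 with scaling by library size alone), 1 of them without overlap (against 8.3% of all genes tested), and their summed level was 416 to 487.5 CPM in WT and 530.4 to 637 CPM in *Lztr1* R409C/+ mice. Most of this sum was *B2m* and *Cd74*, and the values of each overlapped. *B2m* was at 151.3 to 195.1 CPM in WT and 178.5 to 299.4 CPM in *Lztr1* R409C/+ mice. *Cd74* was at 81.1 to 156.6 CPM in WT and 147.2 to 172.9 CPM in *Lztr1* R409C/+ mice. Scaled by library size alone, the sums of the 10 genes overlapped, at 383.1 to 677.1 CPM and 424.2 to 626.7 CPM. *B2m*, *Cd74*, and *Ciita*, of antigen presentation, had log2 fold changes of 0.49, 0.48, and 0.76 (edgeR adjusted p = 0.532, 0.569, and 0.555). That of *B2m* was 0.30 without *Lztr1* R409C/+ replicate 2, and that of *Cd74* was 0.28 without WT replicate 2 and 0.76 without WT replicate 3. These genes and *Psmb8* are also expressed by macrophages, whose markers stood higher in the same mice, and the part of macrophages in these values was not tested.

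NFE2L1 is the transcription factor that raises proteasome genes when proteasomes fall short, through antioxidant response elements. *Nfe2l1* was at 356, 309, and 259.9 CPM in WT and 321, 283, and 372 CPM in *Lztr1* R409C/+ replicates 1 to 3, which overlap, with a log2 fold change of 0.08 that turned to -0.03 without WT replicate 3 and likewise without *Lztr1* R409C/+ replicate 3. Of the 6 genes of NFE2L1 and its activation, 2 were higher and 4 were lower (6 with scaling by library size alone). Of the 6, 0 did not overlap, against 8.3% of all genes higher and 7.23% lower.

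The core of this element, TGACNNNGC on either strand, was looked for in the promoters of RefSeq (build GRCm38.p6), from 250 bases before to 50 bases after the start. Of 38 proteasome genes that matched the promoter table, 6 held it (15.8%), against 14% of 27025 genes. The 6 stretches are shown to place the element beside the genes described above, in lower case with the match in capitals, read 5′ to 3′ on the strand of the gene. A match on the opposite strand reads GCNNNGTCA, as in *Psmc6*, *Psmd12*, and *Psme4*.
*Psmb5* (chr14:54617994-54618082, minus strand): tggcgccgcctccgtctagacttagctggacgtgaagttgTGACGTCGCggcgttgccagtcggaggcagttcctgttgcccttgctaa
*Psmb6* (chr11:70525308-70525361, plus strand): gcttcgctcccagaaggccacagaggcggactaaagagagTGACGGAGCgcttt
*Psmd9* (chr5:123228119-123228194, plus strand): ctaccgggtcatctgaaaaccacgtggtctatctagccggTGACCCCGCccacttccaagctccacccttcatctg
*Psme4* (chr11:30771728-30771779, plus strand): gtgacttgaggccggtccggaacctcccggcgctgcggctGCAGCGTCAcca
*Psmc6* (chr14:45329574-45329645, plus strand): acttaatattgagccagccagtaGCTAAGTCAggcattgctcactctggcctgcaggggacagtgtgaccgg
*Psmd12* (chr11:107479278-107479329, plus strand): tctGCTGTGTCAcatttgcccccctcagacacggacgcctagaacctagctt

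The match began 47 bases before the start in *Psmb5*, 9 in *Psmb6*, 31 in *Psmd9*, 7 in *Psme4*, 227 in *Psmc6*, and 247 in *Psmd12*. The log2 fold changes of these genes were -0.01, 0.24, -0.10, -0.31, -0.09, and -0.19, so that genes with the element lay on both sides of 0. That of *Psmc6* was 0.02 without WT replicate 3, and that of *Psmd9* was 0.02 without both mice of extreme mitochondrial share. The CCAAT box was held by 13 of the 38 genes (34.2%), against 41.1% of all genes. The IRF element GAAANNGAA was held by 7 (18.4%), against 9.76%, and the interferon-γ activated site TTCNNNGAA by 2 (5.26%), against 9.55%. The genes with the IRF element were *Psmb3*, *Psmb4*, *Psmc2*, *Psmd4*, *Psmd9*, *Psme1*, and *Psmg4*. In *Psmc2* the match was not in every promoter listed for the gene. A match of letters is not a site of binding.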

How the data were processed

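mRNA-Seq was measured in the LVs of 3 WT and 3 *Lztr1* R409C/+ mice, with 1 library per mouse, and the groups were taken from the sample labels. The authors used Trim Galore for trimming, HISAT2 for alignment to GRCm39, and StringTie for quantification after excluding rRNA, and deposited whole-number counts per gene. How counts were taken from StringTie, the annotation release, and whether strand was used are not given in the sources used here. For 23 of the 46 genes, exons overlap another listed gene, which counting without strand could not separate. A second table deposited by the authors, from edgeR on 12629 genes, holds log2 values (fold changes and average CPM) and p-values, raw and adjusted. Only its gene names were used. The floor of 3 counts was 0.0317 to 0.0541 CPM and reflects counting error alone.

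Genotypes were compared by edgeR 4.0.16 in R 4.3.3 (filterByExpr, TMM, robust quasi-likelihood test of genotype, two-sided) with Benjamini-Hochberg adjustment over 17212 genes at 0.05. The common biological coefficient of variation was 26.1%. CPM were scaled with TMM factors of 0.80 to 1.39. Standard errors were taken from the log2 fold change and its F statistic. Positions and transcript lengths (Ensembl canonical) came from GENCODE M39, and promoters from RefSeq. The test was run on simulated data of 16922 genes, 193 of them changed by 1 on the log2 scale, of which it called 42 along with 2 unchanged genes. DESeq2 1.42.0 called 66 and 10.

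Members and lists were chosen with earlier results of these data known. Values were given mouse by mouse for genes without overlap between genotypes or with an unadjusted p under 0.05, for the catalytic subunits and activators, and for the genes with the highest and lowest CPM per kilobase. *Psmd14*, *Psmg3*, *Adrm1*, *Sem1*, and the division into 19S and 20S subunits were added after their values were seen. Of the other lists, genes with an unadjusted p under 0.05 were named, besides *Adrm1*, *Sem1*, *Psmb9*, *Psmb10*, *Nfe2l1*, and *Lztr1*. Alternatives were other normalizations, DESeq2, no filter, removal of mitochondrially encoded genes, a loess correction for gene length, a replicate block, a false discovery rate of 0.1, and the omission of each mouse. The omission of the mice with the extreme mitochondrial shares together was chosen after seeing the data. Whether the mice sequenced here were littermates is not given in the sources used here, and p-values measure the spread between these mice. The list of genes for ubiquitin and its E1 enzymes is not reported here as a whole.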

Additional observations from a re-analysis of the deposited data

How the results depend on the processing

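No proteasome gene was called at 0.05 under any alternative that gives a p, which the gene length correction does not. At a false discovery rate of 0.1, tried with the edgeR fit of all mice, 0 were called, while under DESeq2 the adjusted p of *Psmg4* was 0.0716. Of 285 values of the 19 genes named by the rule, 268 kept their direction, and 13 of the 19 genes kept it throughout. The 19S subunits that were lower numbered between 13 and 17 of 17 over the alternatives. With library size only, 5 core and 3 regulatory genes were higher, the median log2 fold changes were -0.12 and -0.30, 5 of the 20S subunits were higher, 1 of the 19S subunits was lower without overlap, and *Psme1* was at -0.051. With upper quartile factors, 2 genes were higher at an unadjusted p under 0.05, *Psmb5* was at 0.038, and *Psme3ip1* was at 0.008. With the gene length correction, the median of the regulatory genes was -0.19 and *Psmb7* was at -0.016. Without both mice with the extreme mitochondrial shares, 3 genes were higher and 0 lower at an unadjusted p under 0.05, and *Psmb5*, *Psmc3*, and *Psme3ip1* were at 0.43, 0.012, and 0.015. Leaving out 1 mouse at a time, 1 to 2 genes were higher and 0 to 1 lower at that p, and the medians ranged from -0.026 to 0.116 in the core and from -0.195 to -0.087 in the regulatory genes, while the sign turned for *Psma6* (-0.142 to 0.071), *Psmb5* (-0.173 to 0.35, with 0.061 without *Lztr1* R409C/+ replicate 1), *Psmb7* (-0.066 to 0.213), *Psmc3* (-0.106 to 0.035, with 0.001 without *Lztr1* R409C/+ replicate 2), and *Psme3ip1* (-0.117 to 0.075, with 0.024 without WT replicate 1). *Psma6* was at 0.003 without WT replicate 3. The causes of these shifts were not tested. Deviations of same-numbered mice from their group means had correlations of -0.00133, 0.0215, and -0.0573 across genes. Mice of different numbers had correlations between -0.0499 and 0.0476. Without mice known to be paired to set beside them, these values cannot show whether the numbers pair the mice. With the replicate block, 0 genes were lower at an unadjusted p under 0.05, since that of *Psmd1* passed it, *Psmb5* was at 0.055, and 1 gene of all tested was called, against 7.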

Other observations

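Genes with proteasome names that were listed in the count table and not in the comparison table were not counted as members. *Psma8*, the testis form of an α subunit, had 13 to 78 counts per mouse. *Psmb11*, the thymus form of a β subunit, had 1 count in WT replicate 3 and 0 in the other 5 mice, below the 3 counts taken as a floor. *Psmc3ip*, a recombination factor named for its binding to an ATPase, had 47 to 98 counts in WT and 34 to 90 counts in *Lztr1* R409C/+ mice, which overlap.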
